A study of Homo sapiens with 4 samples.

Results

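The intervals described here were listed for full-length SOX2 after down-sampling but had no counterpart in the undiminished SOX2 list. They were chosen by the positions in both lists, as the rows of the down-sampled list that overlap no row of the full SOX2 list by 1 bp or more, and there were 691 of them among 38291 down-sampled intervals (1.80%). They are called down-sampled-only intervals below. Their separation from the full list is a description and not a result.

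All lists came from CUT&RUN, in which an antibody guides a nuclease to a chromatin-bound protein and the DNA fragments it releases are sequenced. The cells were BJ fibroblasts, an established line of human foreskin fibroblasts, 48 h into ectopic expression of V5-tagged SOX2 or of V5-tagged SOX2-DBD, the DNA-binding domain of SOX2. Both groups were made with the same V5 antibody in the same line, each had 2 samples, and no sample without an introduced protein was analysed here. The lists analysed were attached to replicate 1 of SOX2 (the full and the down-sampled list) and to replicate 1 of SOX2-DBD. Files of replicate 2 were not analysed here, so nothing below has an error between replicates. Fibroblast identity was not checked, since the lists hold no measure of expression.

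SOX2 is a transcription factor with an HMG box, a domain that inserts into the minor groove of DNA, bends it and recognises short sequences close to ACAAAG or ACAATG. It is a pioneer factor, able to bind sites in closed chromatin, and is best known for maintaining pluripotent and neural progenitor cells. In fibroblasts it is normally silent and serves as a reprogramming factor. The AP-1 factors, dimers of FOS and JUN proteins that recognise TGACTCA, occupy many active enhancers of fibroblasts.

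In what follows the rows of the full SOX2 list are called shared when the same row also stands in the SOX2-DBD list (14300) and SOX2-only when it does not (43607), after exact duplicates were counted once. The 920 rows found in the SOX2-DBD list alone are called SOX2-DBD-only. Total and maximum signal are the authors' deposited values for a row, with no scale stated. The down-sampled list has no signal column.

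The first sequences show 2 of the intervals with most SOX core matches (ACAAAG or ACAATG, on either strand) in the 200 bp at the centre. Capitals mark those matches, the strand is the forward strand of GRCh37 (hg19), and the letters are those of the reference. The first lies in an intron of FAP, the gene of fibroblast activation protein, and had 4 matches. The second lies outside genes on chromosome 1 and had 3.
chr2:163082131-163082330: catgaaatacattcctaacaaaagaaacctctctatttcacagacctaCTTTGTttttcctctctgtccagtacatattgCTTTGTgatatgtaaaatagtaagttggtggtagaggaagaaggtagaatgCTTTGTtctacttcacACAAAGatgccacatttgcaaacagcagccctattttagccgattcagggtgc
chr1:144010169-144010368: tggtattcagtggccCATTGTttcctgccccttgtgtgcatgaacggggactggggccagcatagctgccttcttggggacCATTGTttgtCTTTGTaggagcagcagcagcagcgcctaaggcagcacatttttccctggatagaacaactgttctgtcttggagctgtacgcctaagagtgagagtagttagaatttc

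The next is the centre of the widest interval among those with an AP-1 match (TGACTCA on either strand, in capitals). It lies outside genes on chromosome 11.
chr11:26968079-26968278: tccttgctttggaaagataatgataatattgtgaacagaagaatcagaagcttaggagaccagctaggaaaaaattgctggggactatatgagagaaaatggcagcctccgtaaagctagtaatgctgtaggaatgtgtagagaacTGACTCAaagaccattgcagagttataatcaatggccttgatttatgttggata

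The next was chosen after the values had been seen. The stretch in capitals is the region of maximum signal that the full SOX2 list gives for a neighbouring row, although that row itself lies 732 bp away. The interval lies outside genes on chromosome 4.
chr4:72461336-72461618: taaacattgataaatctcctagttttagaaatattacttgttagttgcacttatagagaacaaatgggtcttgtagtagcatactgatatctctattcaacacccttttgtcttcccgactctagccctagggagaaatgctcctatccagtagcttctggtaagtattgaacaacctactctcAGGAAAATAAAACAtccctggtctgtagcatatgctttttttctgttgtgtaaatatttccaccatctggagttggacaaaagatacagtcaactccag

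The last shows the narrowest extreme. Capitals mark an interval of 4 bp, in an intron of CUBN, with 20 bp on each side. A motif match describes letters and is not evidence of binding.
chr10:17162611-17162654: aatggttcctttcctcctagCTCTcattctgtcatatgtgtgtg

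The down-sampled-only intervals were somewhat narrower than the rest of their list. Their median width was 372 bp (95% order-statistic interval 360 to 392 bp, interquartile range 290.5 to 504.5 bp), against 411 bp (409 to 413 bp) for the 37600 other down-sampled intervals. Intervals under 200 bp made up 70 of 691 (10.1%, Wilson 95% interval 8.10 to 12.6) against 4.65% (4.44 to 4.86) of the others. Shared rows had a median of 373 bp, SOX2-only rows 559 bp and SOX2-DBD-only rows 1036.5 bp. All such intervals cover counting error over genomic intervals, which are not replicates of a condition.

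**Figure D1:**
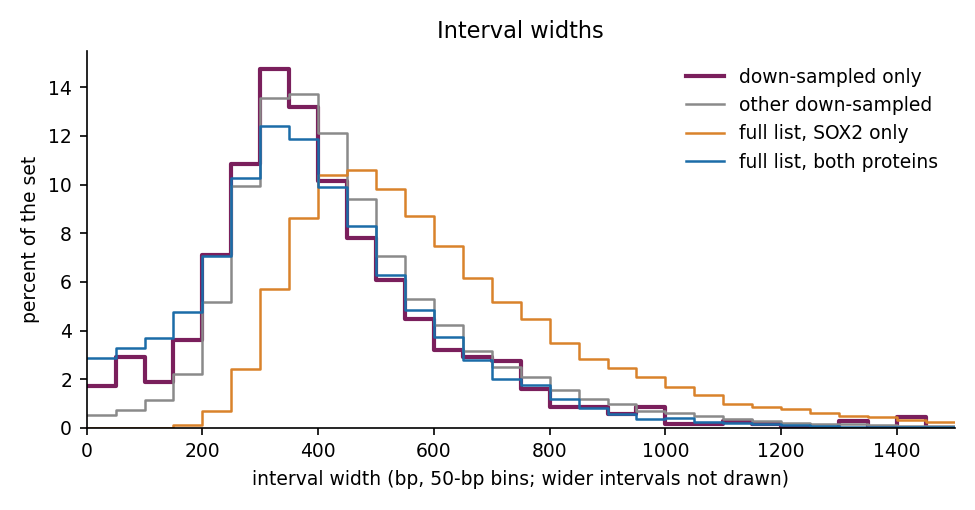
Distribution of interval width in bp (x axis, 50-bp bins up to 1500 bp) as a percent of each set (y axis), for the 691 down-sampled-only intervals, the other down-sampled intervals and both classes of the full SOX2 list. The line of the down-sampled-only intervals lies close to that of the shared rows (medians 372 and 373 bp) and left of the SOX2-only rows (559 bp).

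The 5 widest were 2017 bp at chr1:145109243-145111259 in an intron of SEC22B, 1848 bp at chr21:11119805-11121652 outside genes, 1598 bp at chr15:57528542-57530139 in an intron of TCF12, 1449 bp at chr1:145070765-145072213 in an intron of PDE4DIP and 1430 bp at chr10:47037834-47039263 in an intron of the noncoding gene LINC00842. SEC22B encodes a vesicle-trafficking SNARE, TCF12 a bHLH transcription factor and PDE4DIP an anchoring protein of the centrosome and Golgi. Of these 5, only the TCF12 interval lay within 10 kb of a full-list row, 4533 bp away. The 5 narrowest measured 4 to 12 bp. Besides the CUBN interval they lay in an intron of LINC01410 and outside genes on chromosomes 13, 21 and 22.

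The intervals ranged from direct neighbours of a full-list row to positions far from any. The median distance was 5572 bp (4365 to 6783 bp, interquartile range 626.5 to 19798.5 bp) and the values ran from 55 to 1009505 bp. Without the long runs described below the median was 3277 bp, an alternative chosen after seeing the data. There were 11 intervals closer than 100 bp, 203 from 100 bp to below 1 kb, 211 from 1 kb to below 10 kb and 266 at 10 kb or more. The closest, chr1:28764469-28764874 over an untranslated exon of PHACTR4, lay 55 bp from a shared row, and the next, chr1:103025385-103025772 outside genes, 57 bp from one. On the other side of the rule, 68 down-sampled intervals overlapped the full list by fewer than 10 bp, and the smallest overlap was 1 bp.

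Within 1 kb, the neighbour was usually a shared row. The nearest full-list row was shared for 178 of the 214 intervals within 1 kb (83.2%, 77.6 to 87.6) and for 155 of the 477 farther away (32.5%, 28.4 to 36.8). Over all 691 the share was 48.2% (44.5 to 51.9), while shared rows were 24.7% of the full list. For each of the other down-sampled intervals the nearest row is one it overlaps, and that row was shared in 24.3%. Intervals nearest to a shared row lay at a median of 792 bp (663 to 1197 bp) from it, and those nearest to a SOX2-only row at 9131 bp (7406 to 11558 bp).

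**Figure D2:**
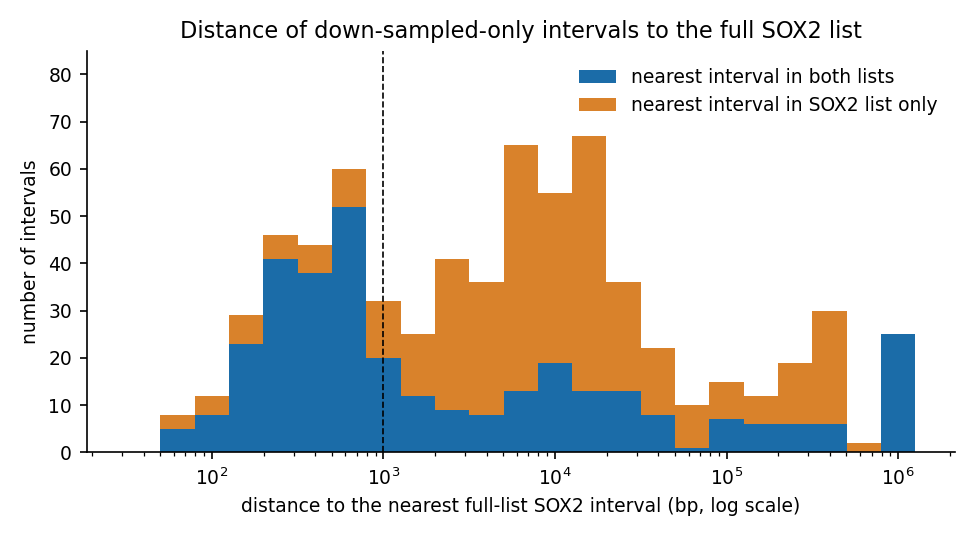
Number of down-sampled-only intervals (y axis, stacked bars) by distance to the nearest row of the full SOX2 list (x axis, bp on a log scale), coloured by whether that row is also in the SOX2-DBD list. Left of the dashed line at 1 kb, 178 of 214 have a shared row as neighbour, and to its right 155 of 477.

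The signal columns describe the rows beside these intervals. The rule did not read them, but most regions of maximum signal lie inside their own row, including those of all SOX2-only rows, so an interval that overlaps no row can overlap few of them. The shares in the next sentence are therefore a description. A region of maximum signal of some row overlapped 45 of the 691 down-sampled-only intervals (6.51%, 4.90 to 8.60), against 89.6% of all down-sampled intervals. In each of these 45 cases the region belonged to the nearest row, that row was shared, and it lay 55 to 952 bp away (median 285 bp). In 29 of them the region lay wholly inside the interval. By the rule only regions reaching outside a shared row could be met.

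The chromosome 4 interval printed above gives an example. It spans chr4:72461336-72461618, and its nearest row, chr4:72460315-72460603, is 289 bp wide, 732 bp away and has a total signal of 6401 and a maximum of 13. The region of that maximum is given as chr4:72461520-72461533, inside the down-sampled-only interval. At chr4:150747074-150747846 the nearest row is 1 bp wide and carries a total signal of 8008. An interval in an intron of LSAMP, a neuronal adhesion gene, at chr3:115707545-115708186 also overlaps the region of its neighbour, 246 bp away. For both chromosome 4 intervals the region of maximum signal lies wholly outside the listed row, and for LSAMP it reaches into it.

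The total signal was compared with the size of the row over all such neighbours. If total signal is a sum over bases, it cannot exceed the maximum multiplied by the width of the row. It did so in 85 of the 176 distinct shared rows that were nearest to an interval within 1 kb (48.3%, 41.0 to 55.6), in 3303 of all 14300 shared rows (23.1%, 22.4 to 23.8) and in 0 of 43607 SOX2-only rows. The same 176 rows had a region of maximum signal reaching outside them in 80 cases (45.5%, 38.3 to 52.8), against 24.4% (23.7 to 25.1) of all shared rows and 0 of the SOX2-only rows. Their median total signal was 4332, against 2742 for all shared rows, at a median width of 370 bp against 373 bp. The 35 SOX2-only rows that were nearest to an interval within 1 kb had 0 cases of either kind. How the listed signal was assigned to rows is not given in the sources used here, and its part in the absence of these intervals from the full list was not tested.

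Overlap with SOX2-DBD was 0 of 691, beside 23.9% of all down-sampled intervals, and the rule fixes this contrast. Shared rows are also rows of the full list, so the rule leaves only SOX2-DBD-only rows that a down-sampled-only interval could touch. For those rows, 0 of 691 allows a share of up to 0.434%. None of the other down-sampled intervals touched a SOX2-DBD-only row either, the closest lying 48 bp away. The median distance to the nearest SOX2-DBD row was 18962 bp (14444 to 22887 bp), and 191 of 691 (27.6%, 24.4 to 31.1) had one within 1 kb. For 189 of the 191 that interval also lay within 1 kb of a full-list row. The other down-sampled intervals had a median of 21694.5 bp, and 25.6% had a SOX2-DBD row within 1 kb. Both values lay inside the ranges given for the 691. The 25.6% includes the 24.3% that overlap a SOX2-DBD row, an overlap with shared rows that the rule denies the 691. A SOX2-DBD-only row lay within 1 kb of 2 intervals (0.289%, 0.0794 to 1.05) and within 10 kb of 13 (1.88%, 1.10 to 3.19), against 0.0612% (0.0408 to 0.0918) and 0.987% (0.892 to 1.09) of the other down-sampled intervals. The counts of 2 and 13 are small.

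A second feature was that some of these intervals stood in unbroken runs. Taken in genome order, 549 of the 691 stood alone between down-sampled intervals that had a partner, and 42 stood in pairs. At the other end, 94 intervals stood in 6 runs of at least 5 neighbours with no full-list row among them. The 3 runs of 5 to 9 held 23 of them (3.33% of the 691) and the 3 longer runs 71 (10.3%). The threshold of 5 was chosen after the runs were seen, so these 94 are a description.

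The longest run held 43 intervals over 401 kb at chr1:144884766-145286016, on the proximal long arm of chromosome 1. It lies in a stretch of 759 kb in which the full list has no row, whereas the down-sampled list has those 43. PDE4DIP held 26 of them, the highest count among the protein-coding genes, with 0 rows of the full list and 0 other down-sampled intervals. SEC22B held 3, and 9 lay in the overlapping annotations of NOTCH2NLA, NOTCH2NLB, NOTCH2NLC and NBPF10. The NOTCH2NL genes are human-specific partial copies of NOTCH2 that act on cortical progenitors, and the NBPF genes are a family expanded by duplication. Because these annotations overlap, the 9 intervals cannot be assigned to 1 of the genes. Near-identical copies can also make the placement of reads uncertain, which was not tested here.

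**Figure D3:**
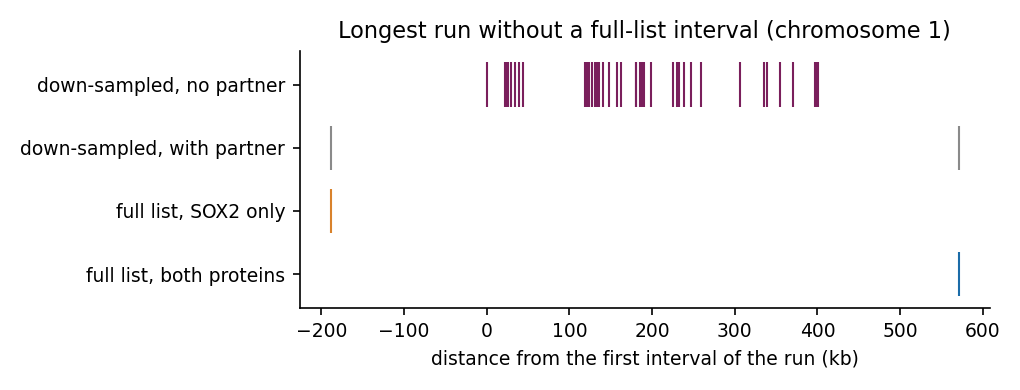
Positions of the down-sampled and full-list intervals around the longest run, as distance in kb from its first interval (x axis). The 43 purple marks spread over 401 kb have no full-list interval among them, and the nearest full-list rows lie outside, at both ends of a stretch of 759 kb.

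The other 5 runs lay on chromosomes 1, 2, 9, 10 and 21. There were 16 intervals over 107 kb at chr21:11042518-11149070, 12 over 17.8 kb at chr2:133016339-133034100, 9 over 78.0 kb at chr9:66458827-66536874, 8 over 536 kb at chr1:144007364-144543048 and 6 over 188 kb at chr10:46959137-47147074. The last of these holds GPRIN2, NPY4R and SYT15, a group of genes with paralogous copies. The 5 intervals farthest from the full list all belonged to the run on chromosome 21, at 1002821 to 1009505 bp.

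The runs differed from the remaining intervals in sequence surroundings. Their 94 intervals lie in only 6 runs, and nearness to a gap belongs to the place, so they are not 94 separate cases. Of the 94, 82 (87.2%) lay within 1 Mb of a gap of at least 50 kb in the assembly, against 9 of the 214 within 1 kb of the full list (4.21%) and 18 of the remaining 383 (4.70%). At least 50% of the 31-base words were present more than once in the genome in 23 of 93 run intervals long enough to hold one (24.7%), in 3 of 211 (1.42%) and in 6 of 379 (1.58%). The runs held 23 of the 32 down-sampled-only intervals of that kind. The runs differed from each other in this. The median percent of repeated words per interval was 66.2 on chromosome 9, 28.1 on chromosome 21 and 19.4 on chromosome 2. It was 3.07 in the longest run on chromosome 1, 0.180 in the other run there and 0.892 on chromosome 10. Among the other down-sampled intervals the share was 1.54% (1.42 to 1.67), and 5.12% (4.90 to 5.34) lay within 1 Mb of a gap.

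The share without a partner differed between chromosomes, and the runs entered into it. Chromosome 1 held 148 of the 691 (21.4%) but 10.3% of the down-sampled list, and its intervals lacked a partner in 3.77% of cases (3.22 to 4.41). With the 51 in runs of at least 5 left out of the count, but not out of the chromosome's total, that value was 2.47%. On chromosome 21 it was 6.48% (4.46 to 9.33), from 26 intervals, and 2.49% with the 16 in the run left out in the same way. Chromosome 22 followed with 3.47% (1.84 to 6.47), from 9 intervals and no such run. The lowest autosomal value was 0.448% (0.174 to 1.15) on chromosome 18, from 4 intervals. Chromosome X held 2 of 279, and chromosome Y 0 of 22 (upper Wilson bound 14.9%). Next to each other along a chromosome, the down-sampled-only intervals were a median of 1357 kb apart (1160 to 1819 kb), and 137 of 668 neighbouring pairs (20.5%) were within 100 kb. Over the whole down-sampled list the median was 24.5 kb and 85.6% of pairs were within 100 kb. That list holds 38291 intervals, and spacing grows as a set gets smaller. These 2 medians therefore do not show whether the 691 are more or less scattered than the list. Without the runs of at least 5, the median between down-sampled-only intervals was 2151 kb.

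**Figure D4:**
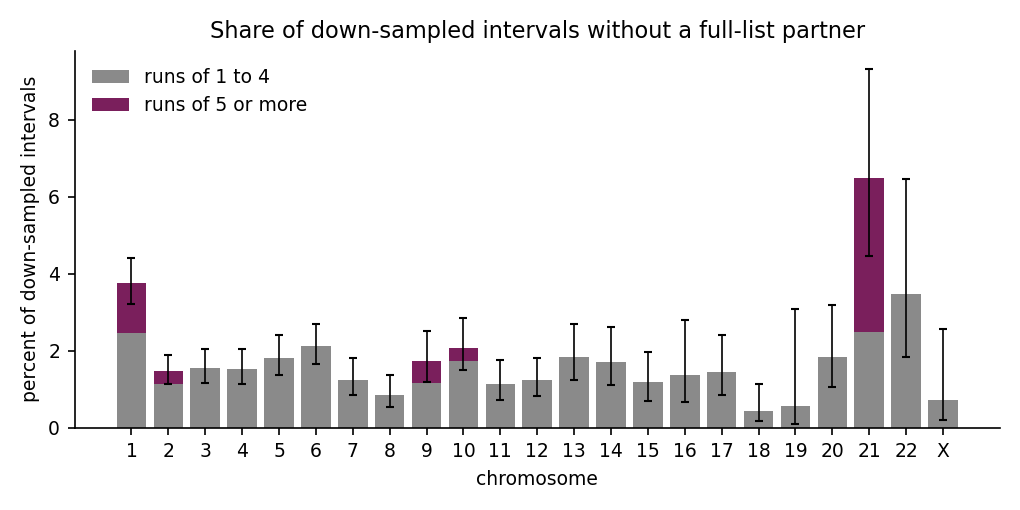
Percent of the down-sampled intervals on each chromosome (y axis) that have no partner in the full SOX2 list, split into those in runs of at least 5 (purple) and the rest (grey), with Wilson 95% intervals of the total. Chromosomes 1 and 21 stand highest beside 22, at 3.77% and 6.48%. Their grey parts alone are 2.47% and 2.49% of all down-sampled intervals of the chromosome. Chromosome Y (0 of 22) is not drawn.

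Relative to genes, the down-sampled-only intervals were placed much like the rest of their list. A transcription start was within 1 kb of the centre in 49 of 691 (7.09%, 5.41 to 9.25); of the remaining centres 26 (3.76%) were in an exon, 417 (60.3%, 56.7 to 63.9) in an intron and 199 (28.8%, 25.5 to 32.3) outside genes. In the same order the other down-sampled intervals had 6.71%, 4.49%, 64.2% (63.8 to 64.7) and 24.6% (24.1 to 25.0). For introns and for positions outside genes the share of the other intervals lay outside the range given for the 691. Among the 691, the share outside genes was 37.2% in the 94 of the runs of at least 5. It was 29.0% in the 214 within 1 kb of the full list and 26.6% in the remaining 383. SOX2-DBD-only rows had 11.5% (9.62 to 13.7) within 1 kb of a start.

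Starts of protein-coding genes were within 1 kb of 14 intervals (2.03%, 1.21 to 3.37), against 1.87% (1.74 to 2.01) of the other down-sampled intervals. The nearest was the PHACTR4 interval, 10 bp from the start. PHACTR4 is an actin and phosphatase regulator. An interval of 264 bp at chr6:148829596-148829859 lay 118 bp from the start of SASH1, a scaffold protein, and one of 1069 bp at chr4:22475117-22476185 lay 210 bp from that of ADGRA3, an adhesion receptor. A further pair flanked neighbouring genes on chromosome 10. One, at chr10:104262506-104262859, lay 214 bp from the start of ACTR1A, a dynactin subunit, and the other, at chr10:104263344-104263666, lay 224 bp from that of SUFU, the inhibitor of GLI factors in hedgehog signalling. Both were over 48 kb from the full list, at 49374 and 48567 bp.

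Coding sequence lay under the centre of 2 intervals, in TPMT, which methylates thiopurine drugs, and in EXOC5, a subunit of the exocyst. Untranslated exons of protein-coding genes lay under 23. Among them were the interval of 323 bp at chr3:55502189-55502511 in WNT5A, a WNT ligand, 435 bp from a shared row, and 5 in the NOTCH2NL copies of the longest run. TPMT, EXOC5 and WNT5A were picked after the values had been seen.

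Of the gene lists examined, few held any of these intervals. On or within 10 kb of 14 pluripotency genes there was 1 interval, at chr6:105462906-105463290 in an intron of LIN28B, an RNA-binding protein that blocks maturation of the let-7 microRNAs. It was 385 bp wide, lay 37083 bp from the nearest full-list row and had 0 SOX core matches in its window. Of 12 collagen and fibronectin genes, COL12A1 had 1, in an intron at chr6:75904760-75905268, 387 bp from a shared row. Of 22 very long neuronal genes, LSAMP and PCDH9 had 1 each. The neural progenitor list (15 genes), the fibroblast identity list (12), the AP-1 genes (9) and the TEAD and YAP genes (10) had 0, which allows up to 0.434% each. These shares were 0.145%, 0.145%, 0.289% and 0, beside 0.0186%, 0.133% and 0.439% of the other down-sampled intervals for the first 3 lists and 0.0319%, 0.0665%, 0.0106% and 0.0718% for the last 4. With so few intervals, differences of this size were not detectable.

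The SOX core motif was present at a share near that of the rest of the list and above that of flanking windows. It was present in the 200-bp centre window of 324 of 691 (46.9%, 43.2 to 50.6) and in 25.3% (22.2 to 28.7) of windows 10 kb downstream. The other down-sampled intervals had 48.4% (47.9 to 48.9) and 28.0% (27.5 to 28.4). Of adjacent 200-bp windows of the genome without undetermined bases, 26.7% held the motif. Those windows averaged 40.9% GC. At the GC content of the down-sampled-only intervals, the share of genome windows was 31.3%. A longer form, AACAATGG (which contains the core) or AACAATAG on either strand, was in 23 intervals (3.33%, 2.23 to 4.95), in 3.67% (3.48 to 3.86) of the others and in 1.66% of genome windows.

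By distance from the full list, the motif was present in 101 of the 214 within 1 kb (47.2%, 40.6 to 53.9), in 183 of the 383 farther away and outside the long runs (47.8%, 42.8 to 52.8) and in 40 of the 94 in those runs (42.6%). The first and second ranges overlap, which does not show that the groups are alike. Of the 324 with a match, 234 had 1, 79 had 2, 10 had 3 and 1, the FAP interval, had 4. That interval spans chr2:163082072-163082389, 425 bp from a SOX2-only row. Another with 3 lay in an intron of PHF14, a chromatin reader, at chr7:11022891-11023356, 25205 bp from the full list.

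Matches gathered at the centre. There were 3.17 SOX core matches per kb in the central 200 bp and 1.92 per kb at 500 to 1000 bp on both sides, against 3.26 and 1.66 per kb in the other down-sampled intervals and 2.76 and 1.62 in SOX2-DBD-only rows. For TEAD (GGAATGT on either strand), the motif of the factors through which YAP acts, the values were 0.326 and 0.161 per kb, and the motif was in 43 windows (6.22%, 4.65 to 8.28) against 6.15% (5.91 to 6.40) of the others, 2.93% (2.02 to 4.23) of SOX2-DBD-only rows and 2.88% of genome windows.

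AP-1 matches were less common here than in the list as a whole, but the share was near that of its intervals without SOX2-DBD. TGACTCA was present in 41 windows (5.93%, 4.40 to 7.95), against 9.20% (8.91 to 9.50) of the other down-sampled intervals, 14.3% (12.2 to 16.8) of SOX2-DBD-only rows and 3.05% of genome windows. The 28466 other down-sampled intervals that overlap no SOX2-DBD row, which is the nearer comparison because the down-sampled-only intervals overlap none either, had 6.81% (6.52 to 7.11). At the GC content of the down-sampled-only intervals that value was 7.12%. AP-1 matches numbered 0.318 per kb in the central 200 bp and 0.239 per kb at 500 to 1000 bp, a ratio of 1.33, against a ratio of 3.16 in the other down-sampled intervals and 3.76 in SOX2-DBD-only rows. SOX2-only rows of the full list, which lack SOX2-DBD, had 0.349 per kb in the central 200 bp, near the 0.318 here. Their ratio was 2.36. The ratio here also reflects the rate at 500 to 1000 bp. That rate was 0.239 per kb, against 0.148 in SOX2-only rows and 0.156 in the other down-sampled intervals. A full-list row, usually a shared one, lay within 1 kb of 214 of the 691. Shared rows had 0.929 AP-1 matches per kb in their central 200 bp. The part of such neighbours in the flanking rate was not tested.

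Within the set, AP-1 was in 19 of the 214 intervals within 1 kb of the full list (8.88%, 5.76 to 13.4), in 20 of the 383 farther and outside the runs (5.22%, 3.41 to 7.93) and in 2 of the 94 in runs (2.13%, 0.585 to 7.43). The last range counts the 94 as separate intervals, although they lie in a few places. No window had more than 1 match. The 5 widest with a match were the interval outside genes on chromosome 11 printed above, 231 bp from a shared row, and intervals in introns of EPS8, ENPP1 and PLCB4 and outside genes 2680 bp from the start of TAS2R7. EPS8 regulates actin dynamics, ENPP1 is a pyrophosphatase and PLCB4 a phospholipase.

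**Figure D5:**
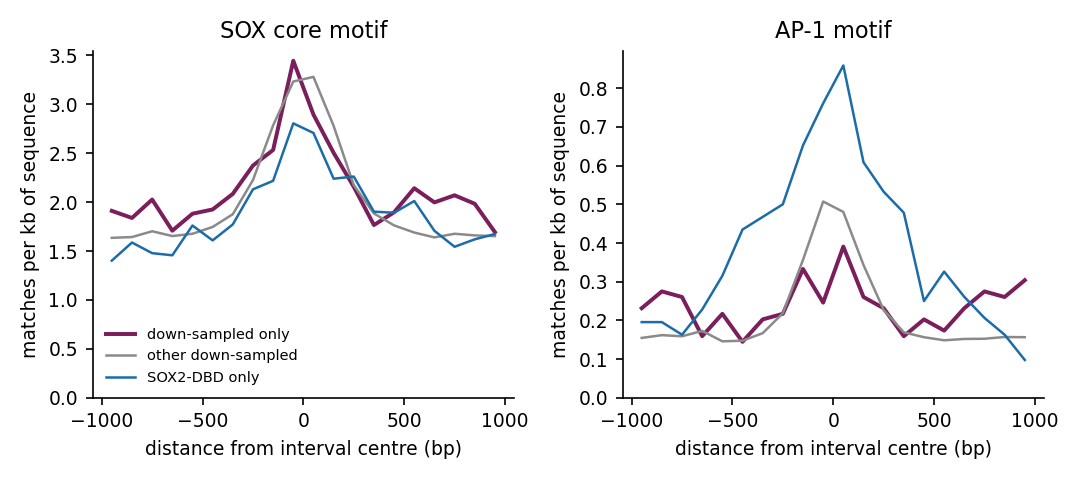
Matches per kb of sequence (y axes, both starting at 0) of the SOX core motif (left) and the AP-1 motif (right) by distance from the interval centre in bp (x axes, 100-bp bins), for the 691 down-sampled-only intervals, the other down-sampled intervals and the SOX2-DBD-only rows. All 3 lines of the left panel peak at the centre, while on the right the down-sampled-only line has no clear peak (0.318 per kb in the central 200 bp, against 0.494 and 0.810; SOX2-only rows, not drawn, had 0.349).

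RUNX matches were also less common. The RUNX motif (TGTGGTT on either strand) was in 28 windows (4.05%, 2.82 to 5.79), against 6.16% (5.92 to 6.41) of the others and 3.84% of genome windows. The other intervals without SOX2-DBD had 5.82%, just outside the range of the 691, while for AP-1 their share lay inside it. The forkhead motif TGTTTAC was in 24 (3.47%, 2.34 to 5.12) against 4.34% (4.13 to 4.55), and the octamer ATGCAAAT, the site of POU factors that partner SOX2, in 17 (2.46%, 1.54 to 3.90) against 2.87% (2.70 to 3.04). In all, 10 motifs were counted with no adjustment for their number. The E-box CACGTG was in 3 windows, and the CRE TGACGTCA and the NFI motif in 1 each, too few to compare.

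GC content was near that of the list, and the CpG ratio was somewhat higher. The mean GC content of the centre windows was 34.3% in the down-sampled-only and 33.9% in the other down-sampled intervals. The windows 10 kb downstream of the former had 39.7%, and SOX2-DBD-only rows 40.6%. The ratio of observed to expected CpG averaged 0.137 in the down-sampled-only and 0.118 in the other down-sampled windows. The medians were 0.131 (0.103 to 0.140) and 0, and shared rows had a median of 0.128. A run of 10 or more of 1 base was present in 21 windows (3.04%) and in 3.21% (3.04 to 3.39) of the others.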

How the data were processed

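The deposited files are interval lists, and the depth of the libraries is unknown. Per the submitters' processing notes, which name no roles or order, the tools were Bowtie2 2.3.4.1, SAMtools, bedtools 2.27.1, SEACR 1.3 and deepTools 3.5.0, with build hg19. Thresholds, pooling of replicates and the way the list was down-sampled are not given in the sources used here. The authors deposited a total and a maximum signal per row of the full and SOX2-DBD lists (scale not stated). Their other columns, and those of the down-sampled list, are deposited positions. The seventh column of the SOX2 list has no stated meaning and was not used.

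Exact duplicate rows were counted once. Distances are bases between edges. Positions were compared with the GRCh37 sequence (0 intervals beyond a chromosome end) and GENCODE release 44 mapped to it, taking in order a start within 1 kb of the centre, exon, intron and outside genes. Motifs were sought on both strands in 200-bp centre windows. Repeats were 31-base words found more than once in the genome. Shares have Wilson and medians order-statistic 95% intervals, which cover counting error only, and 3 counts limit a share of 0. No p-value was computed, because each group had 1 list. Intervals were named by rank in width, distance or motif count, by nearness to coding starts, by gene list or by run. Members and lists were chosen with earlier results of these data known. The code was tested on simulated data. Work used python 3.11.15, numpy 2.4.6, pandas 2.3.3, scipy 1.17.1, numba 0.67.0, matplotlib 3.10.9 and samtools 1.23.1. A few items that the naming rule selects are not reported here.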

Additional observations from a re-analysis of the deposited data

How the results depend on the processing

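No paired analysis was possible because only replicate 1 of either protein had lists here, and leaving out a replicate was not possible either. No stricter threshold could be tried, since the down-sampled list has no signal. Counting as absent every interval with under 50% of its length in the full list gave 1871 intervals of median width 446 bp, 559 kb apart, with medians of 0 bp to SOX2 and 0 bp to SOX2-DBD, a shared row as nearest in 80.9% and a region of maximum signal in 60.8%. The distances of 0 follow from the rule, which then admits overlapping intervals. Keeping those at least 1 kb from the full list gave medians of 12572 bp to SOX2 and 44074 bp to SOX2-DBD, 32.5% nearest to a shared row, 0% on a region of maximum signal and a spacing of 1833 kb, against 1357 kb for all 691. Leaving out runs of 5 or more, an alternative chosen after seeing the data, gave 3277 bp, 12825 bp and 2151 kb. The spacings also depend on how many intervals each alternative keeps. A minimum width of 200 bp gave a median width of 396 bp. A start within 5 kb gave 29.5% and protein-coding transcripts 2.03% near a start. The SOX core was in 25.6% of 100-bp windows, 68.6% of 400-bp windows and 66.4% of whole intervals, and the long SOX motif in 3.33% of windows. The AP-1 share, 5.93% in 200-bp windows, was 2.17% in 100-bp windows, 11.7% in 400-bp windows and 13.5% in whole intervals. The share with at least 50% repeated 31-base words, 4.69%, was 2.09% under the 50% overlap rule, 1.53% without the runs and 0% where such intervals were left out. A value was counted as unchanged inside the 95% interval of the reported value, or within 1.5 times the reported count. For the main results 56 values were unchanged and 22 moved. For 3 single features 18 were unchanged and 6 moved. Some alternatives, such as autosomes only, kept nearly all of the 691, so their values could hardly move. The unchanged counts are therefore not a measure of robustness.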
